A study of Mus musculus with 30 samples.

Results

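The genes that carry zinc, iron and copper across membranes were described in mouse sperm DNA: 14 ZIP importers (Slc39a1 to Slc39a14), 10 ZnT exporters (Slc30a1 to Slc30a10), the zinc sensor Mtf1, 4 iron genes, 2 copper genes and 2 ABC exporters of metal conjugates. Members were chosen by name, 33 of the 34324 protein-coding and lncRNA genes placed on the autosomes and X, and the CpGs taken were those within each RefSeq gene on GRCm38 extended by 2 kb. These held 2120 of the 1125285 tested CpGs, of which Slc39a11 alone held 426 (20.1%). The assay was reduced representation bisulfite sequencing, RRBS, in which enzyme digestion and size selection leave the CpG-dense fragments of the genome for bisulfite reading. Sperm came from both cauda epididymides of 30 male mice, labelled C57BL/6 and bought as C57BL/6J at 7 weeks of age, 15 per group. All were housed singly on a diet with 10% of its energy from fat. The vehicle mice drank reverse-osmosis (RO) water. The cadmium mice drank the same water carrying cadmium, added as cadmium chloride, at 0.9 ppm (equal to 0.9 mg/L), an average of 0.68 mg per kg of body weight, and sampling followed 9 weeks of treatment. The labels do not say how mice of the groups were matched or whether any DNA was pooled.

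ZIP proteins bring zinc into the cytosol from outside the cell or from organelles, and ZnT proteins move it the other way. Cadmium has no transporter of its own and enters cells through carriers of other divalent metals, above all ZIP8 (Slc39a8), ZIP14 (Slc39a14) and the iron importer DMT1 (Slc11a2). Zinc or cadmium load activates Mtf1, which binds metal response elements in the promoters of metallothioneins and of the zinc exporter gene Slc30a1. In most cells CpG-rich promoters are free of methylation and gene bodies carry it.

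The gene starts that the results turn on are shown first, because Slc30a3 and Slc39a10 each have an upstream and an internal start of different base composition. Each line gives the 250 bases before a RefSeq start (GRCm38.p6), on the strand of the gene, with CpGs in capitals. Slc30a3 lies on the minus strand, with its upstream stretch at chr5:31108245-31108494 and the internal one at chr5:31093528-31093777. They hold 13 and 11 CpGs.
Slc30a3 upstream: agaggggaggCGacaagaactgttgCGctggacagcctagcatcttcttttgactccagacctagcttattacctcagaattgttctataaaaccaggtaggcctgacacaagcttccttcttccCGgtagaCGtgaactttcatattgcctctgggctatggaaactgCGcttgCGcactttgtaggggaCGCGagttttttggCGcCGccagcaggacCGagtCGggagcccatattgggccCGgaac
Slc30a3 internal: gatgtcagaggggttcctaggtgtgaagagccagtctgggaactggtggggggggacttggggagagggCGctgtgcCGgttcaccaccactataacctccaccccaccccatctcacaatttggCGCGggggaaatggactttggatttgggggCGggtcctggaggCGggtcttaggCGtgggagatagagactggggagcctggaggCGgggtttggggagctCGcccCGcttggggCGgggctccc
Slc39a10 also lies on the minus strand, at chr1:46925777-46926026 upstream and chr1:46853619-46853868 internally, with 1 and 37 CpGs and a G and C content of 35.6% and 71.6%.
Slc39a10 upstream: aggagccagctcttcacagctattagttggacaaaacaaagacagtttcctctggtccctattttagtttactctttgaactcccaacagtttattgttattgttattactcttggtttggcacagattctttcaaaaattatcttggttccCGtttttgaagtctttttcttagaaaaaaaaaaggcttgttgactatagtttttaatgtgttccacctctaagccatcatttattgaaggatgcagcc
Slc39a10 internal: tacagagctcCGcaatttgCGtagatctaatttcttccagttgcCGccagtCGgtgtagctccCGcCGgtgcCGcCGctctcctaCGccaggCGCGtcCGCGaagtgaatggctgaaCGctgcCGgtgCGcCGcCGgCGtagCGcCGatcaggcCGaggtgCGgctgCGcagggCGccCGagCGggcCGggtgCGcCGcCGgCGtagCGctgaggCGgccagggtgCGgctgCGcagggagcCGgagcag
Slc30a1, the target of Mtf1, follows at chr1:191906531-191906780 on the plus strand, here with a match to a metal response element core in capitals, which lies on the opposite strand and so is printed as its reverse complement.
Slc30a1: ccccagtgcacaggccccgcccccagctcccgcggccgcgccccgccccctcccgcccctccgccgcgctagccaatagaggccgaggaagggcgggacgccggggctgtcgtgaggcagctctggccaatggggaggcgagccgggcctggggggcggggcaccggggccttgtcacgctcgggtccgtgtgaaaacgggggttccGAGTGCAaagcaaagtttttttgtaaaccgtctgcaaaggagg

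A CpG was tested, with its strands summed, when at least 10 mice of each group had 10 or more reads there. At the members' tested CpGs a mouse had a median of 42 reads if given cadmium and 47 if given vehicle, against 43 and 48 over all tested CpGs. Summed over cytosines, library coverage ranged from 53591172 to 94090975. The H19 control region, methylated in sperm, read 87.1% ± 9.32 (SD, n = 15 throughout where not given) with cadmium and 88.6% ± 12.8 with vehicle at its 2 tested CpGs, while the start windows of Rasgrf1 and Meg3, genes with other paternally methylated regions, read 1.23% and 23.6% in cadmium mice and 1.18% and 23.9% in vehicle mice. These 2 windows surround gene starts and were not placed on the paternally methylated regions. For imprinted genes with regions methylated in oocytes and free of methylation in sperm, a maternal germline DMR level was made per mouse. It averaged 14 windows around the starts or other ends of 13 such genes. These windows were likewise not placed on the regions methylated in oocytes. Only windows measured in every mouse with a mean under 20% over these same mice were used, so the level is kept low by that choice. Their means ran from 0.475% to 19.4%, and windows such as those of Mest (26.5%) and Plagl1 (21.5%) were left out. The level was 14.6% ± 5.01 (lowest 5.90%, median 14.9%, highest 21.4%) with cadmium and 11.7% ± 7.09 (2.80%, 10.0%, 26.6%) with vehicle, and the groups overlapped. This level was above 0 in every mouse and moved with some member levels, which are given with it below.

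Each gene was read in 3 parts: a start window of 1000 bp either side of the start, a far end window of the same size at the other end, and the body between them. A part needed 3 tested CpGs. Start windows of 21 members, far ends of 13 and bodies of 22 were measured, and 6 members had all 3 parts. Slc39a5 and Slc39a12, importers of the ZIP family, Slc30a8, which loads zinc into insulin granules, and Fth1, the iron-storing ferritin heavy chain, had no part measured. Strand was known for 26 members. For Slc39a4, Slc39a6, Slc39a14, Slc30a8, Slc11a2, Slc40a1 and Abcc1 it was not, and their start window is the end with the lower coordinate, whichever end of the gene that is. Levels are percent methylation, the share of methylated reads in the part, averaged over mice without weights.

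**Figure D1:**
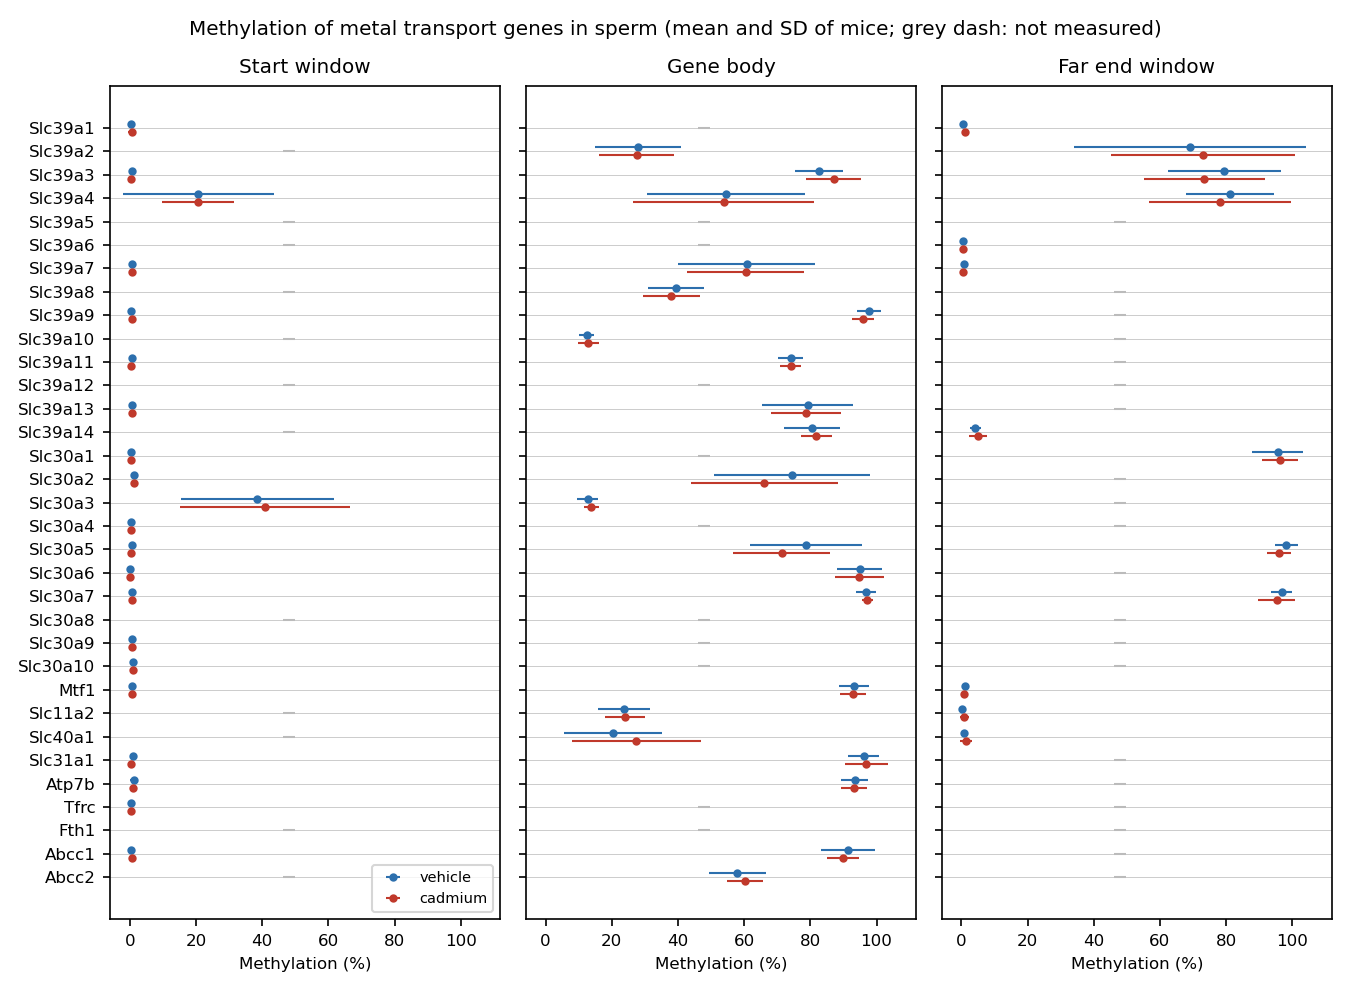
Methylation (%) of the 33 members in the start window, gene body and far end window; points are group means and bars the SD over mice, blue for vehicle and red for cadmium, and grey dashes mark parts not measured. All but 2 of the 21 start windows lie near 0 in both groups, whereas bodies run from about 12.4% to 97.8% in vehicle mice; for the 7 genes without a strand the start window is the end with the lower coordinate.

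No member part passed the test between cadmium and vehicle mice. A logistic model of methylated and unmethylated reads, fitted to every gene and adjusted by the Benjamini-Hochberg method over all genes, called 0 of 21 member start windows, 0 of 13 far ends and 0 of 22 bodies at an adjusted p under 0.05. The same model called 0% of 16058 start windows, 0% of 6903 far ends and 0% of 17449 bodies over all genes. Before adjustment, at p under 0.05, it marked 1 member start window (4.76%, against 5.55% of all), 1 far end (7.69%, against 5.2%) and no body (against 3.74%). limma on percent methylation called none after adjustment and marked 1 start window, 1 far end and no body before it, against 4.07%, 2.94% and 3.17% of all. In all 56 measured parts the mice of the groups overlapped, and the 95% interval of the difference contained 0 in 54 of them. Neither count was made over all genes, and overlapping ranges do not show that the groups are equal.

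Among the members' start windows, 19 of 21 (90.5%) were below 5% in vehicle mice, against 75.6% of all genes. Their means ran from 0.0696% to 1.38% in vehicle mice and from 0% to 1.32% in cadmium mice over 6 to 88 CpGs, and the highest single mouse was at 3.77%. Of these 19, 8 were higher and 11 lower in cadmium mice. The bounds of their 95% intervals lay between -1.03 and 0.929 percentage points, so a change of more than 1.03 points in either direction was outside every interval. The start windows of Slc30a1, Slc30a4, Slc30a7, Slc30a10, Slc39a7, Slc39a9, Slc39a13, Slc31a1 and Atp7b also hold an end of another gene.

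Of the 14 ZIP importers, 7 had a start window, and 6 of these were below 2% in both groups: Slc39a1, Slc39a3, Slc39a7, Slc39a9, Slc39a11 and Slc39a13. Slc39a7, which releases zinc from the endoplasmic reticulum, was at 0.568% ± 0.331 in cadmium and 0.544% ± 0.387 in vehicle mice over 66 CpGs. That window also holds an end of its neighbour Rxrb. The exception was the lower-coordinate end of Slc39a4, the importer that takes up dietary zinc in the gut. It stood at 20.6% ± 10.8 in cadmium mice (lowest 3.51%, median 18.8%, highest 41.5%) and 20.7% ± 22.8 in vehicle mice (0%, 14.7%, 73.1%) over 12 CpGs. The groups overlapped throughout, with 3 vehicle mice at 0%, and the difference of -0.0872 points had a 95% interval from -13.7 to 13.5 (p = 0.988, two-sided permutation test with 100000 resamples). As an unweighted mean over CpGs the difference was 4.57 points (p = 0.498 by the same test).

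Of the 10 ZnT exporters, 9 had a start window, and 8 of these were below 2% in both groups. Slc30a1, the exporter at the cell surface that Mtf1 induces, was at 0.472% ± 0.402 in cadmium mice (lowest 0%, median 0.458%, highest 1.24%) and 0.408% ± 0.266 in vehicle mice (0.0348%, 0.363%, 1.06%) over 88 CpGs. The groups overlapped and the difference of 0.0639 points had a 95% interval from -0.193 to 0.321 (p = 0.612, permutation test). Slc30a6, which works as a pair with Slc30a5 in the secretory pathway, had no methylated read at its start in 14 cadmium mice, where 3877 reads allow a level of up to 0.0774% (counting error alone). Its 14 vehicle mice ranged from 0% to 0.568% around a mean of 0.0696%, with 12 of them at 0%, and the logistic model gave p = 0.0928 (adjusted p = 0.940). Slc30a5 was at 0.273% ± 0.534 (0%, 0%, 1.82%) with cadmium and 0.677% ± 1.04 (0%, 0.109%, 3.69%) with vehicle, and the logistic model gave p = 0.239 (adjusted p = 1.0). Both starts thus had means under 1% and mice that overlapped.

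The ninth ZnT start was partly methylated: Slc30a3, which fills synaptic vesicles with zinc. Its upstream start window was at 40.8% ± 25.8 in cadmium mice (lowest 0%, median 36.7%, highest 85.1%) and 38.5% ± 23.2 in vehicle mice (1.63%, 41.5%, 66.2%) over 9 CpGs. That window also holds an end of its neighbour Dnajc5g. Mice of both groups spread across almost the whole scale, and the difference of 2.27 points had a 95% interval from -16.1 to 20.6 (p = 0.795, permutation test). Within the upstream sequence printed above, 8 CpGs were tested, at 125, 118, 81, 45, 42, 30, 25 and 6 bases before the start. The CpG 125 bases before the start averaged 23.8% with cadmium and 22.0% with vehicle, and the CpG 6 bases before it 40.9% and 39.2%. At 25 bases before the start 5 cadmium and 3 vehicle mice read 0% while 3 cadmium and 1 vehicle mouse read 100%, at a median of 32 reads per mouse. CpGs this close lie on the same fragments and are not separate measurements, and the number of DNA molecules behind the reads is not known.

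The internal start of Slc30a3, within the gene 14717 bp from the upstream one, had a different level. Over 77 CpGs it read 1.63% ± 1.01 in cadmium mice (lowest 0.0303%, median 1.78%, highest 3.60%) and 1.51% ± 0.878 in vehicle mice (0.377%, 1.33%, 3.06%). Every mouse was thus under 5% at the internal start, while the upstream start ranged from 0% to 85.1%.

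Internal starts were also free of methylation in 2 importers whose upstream start was not measured. Slc39a10, a zinc importer at the cell surface, had no tested CpG near its CpG-poor upstream start. Its internal start, 72158 bp into the gene, read 0.571% ± 0.337 in cadmium (0.0475%, 0.616%, 1.36%) and 0.466% ± 0.295 in vehicle mice (0.137%, 0.348%, 1.29%) over 94 CpGs. Slc39a8, the carrier of zinc, manganese and cadmium, had a RefSeq start 8775 bp into the gene, which read 0.764% ± 0.842 (0%, 0.552%, 2.81%) in cadmium and 0.788% ± 0.713 (0%, 0.664%, 2.06%) in vehicle mice over 26 CpGs. In both genes the groups overlapped. Slc39a11, whose upstream start was measured and near 0, had another start 84385 bp into the gene, with 17 CpGs. This internal start read 0.793% ± 0.768 (lowest 0%, median 0.792%, highest 2.14%) in cadmium and 2.27% ± 2.32 (0%, 1.76%, 9.55%) in vehicle mice. The difference was -1.48 points with a 95% interval from -2.81 to -0.146, internal starts were not tested on their own, and the groups overlapped, with 5 cadmium and 2 vehicle mice at 0%. A run of the logistic model that pooled all RefSeq promoter starts of a gene called 0 members and 0 over all genes.

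**Figure D2:**
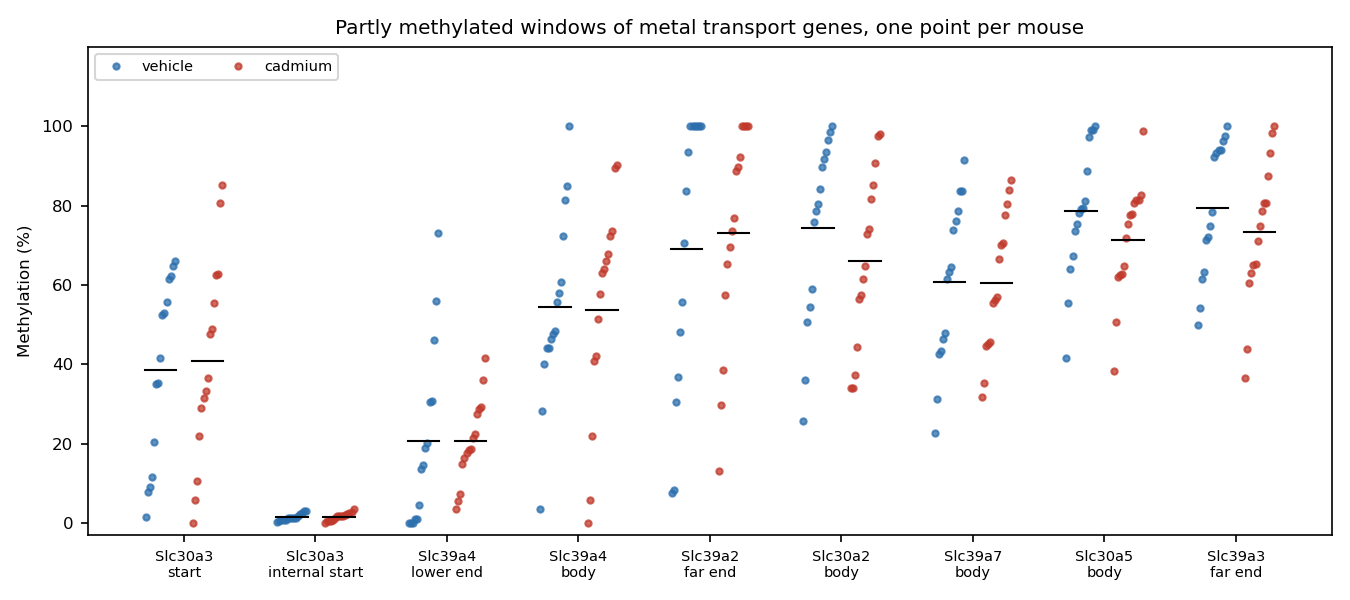
Methylation (%) per mouse in the 8 partly methylated member parts with the largest SD among vehicle mice, and at the internal start of Slc30a3 for comparison; points are mice, blue for vehicle and red for cadmium, and black bars are group means. Mice of both groups spread widely and overlap in each of the 8 parts, while at the internal Slc30a3 start all mice lie under 5%.

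The measured start windows of the other members were near 0. Mtf1 was at 0.629% ± 0.564 in cadmium mice (lowest 0%, median 0.627%, highest 1.82%) and 0.762% ± 0.756 in vehicle mice (0%, 0.577%, 2.53%) over 39 CpGs. Tfrc, the transferrin receptor that brings iron into cells, was at 0.481% ± 0.707 (0%, 0%, 1.97%) and 0.197% ± 0.411 (0%, 0%, 1.48%), in the same order. The groups overlapped at both. Slc31a1, the copper importer CTR1, was at 0.465% ± 0.276 (0%, 0.458%, 0.996%) with cadmium and 0.816% ± 0.834 (0%, 0.547%, 2.68%) with vehicle, and the logistic model gave p = 0.0708 (adjusted p = 0.924). Atp7b, the copper pump that is lost in Wilson disease, was at 1.02% ± 0.871 (0%, 0.824%, 2.26%) and 1.14% ± 1.07 (0%, 1.08%, 3.27%). The smallest p among the starts was that of Abcc1, which exports glutathione conjugates. Its lower-coordinate end was at 0.495% ± 0.419 (0%, 0.562%, 1.21%) in cadmium and 0.208% ± 0.235 (0%, 0.0602%, 0.786%) in vehicle mice over 45 CpGs. The difference of 0.287 points had a 95% interval from 0.0302 to 0.544, with p = 0.0164 and an adjusted p of 0.759 by the logistic model, and the groups overlapped.

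Metal response element cores were searched in the RefSeq promoters, from 250 bases before to 50 after each start, as TGCACNC and TGCGCNC on both strands, where matches may overlap. Promoters were given for 26 members, 33 in all, and 14 of the 33 (42.4%) held a match, against 25.7% of 32851 promoters. The 26 member promoters that were measured had a median of 23 CpGs per 300 bases, which leaves out 7 unmeasured ones with 0 to 27. Over all promoters, measured or not, the median was 7. The medians cover different selections, so whether member promoters are richer in CpGs is not shown. The shares with a match were not adjusted for CpG content. A tested CpG fell in 4 of the 21 matches, in Slc39a13, Slc30a4 and Slc30a2, and the highest group mean among them was 0.795%, with a highest single mouse of 10.3%. The match in the upstream Slc30a3 sequence, TGCGCAC at 77 bases before the start, contains a CpG that was not tested. A match here is a description of letters and not a site.

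**Figure D3:**
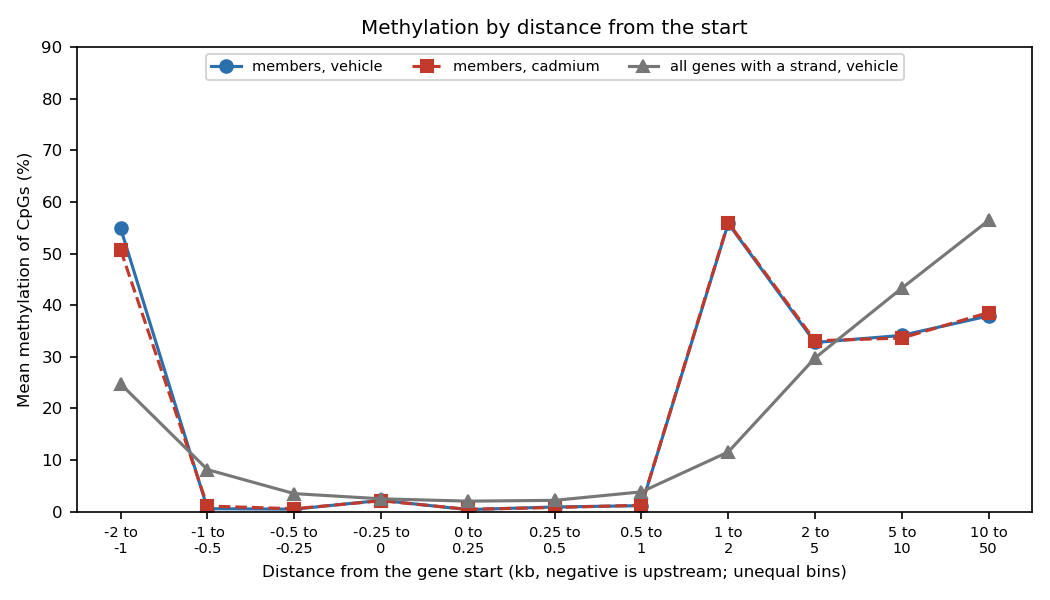
Mean methylation (%) of tested CpGs by distance from the gene start in kb (unequal bins), for members with a known strand in vehicle (blue circles) and cadmium mice (red squares) and for all genes with a strand in vehicle mice (grey triangles). From 1 kb before to 1 kb after the start members stay under 3%, and 1 to 2 kb inside the gene 22 CpGs of 5 members average 55.8% in vehicle mice against 11.6% over all genes.

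Around the start the members followed the form of other genes, with a trough between 1 kb before and 1 kb after it. In the 250 bases after the start 239 CpGs of 17 members averaged 0.401% in vehicle and 0.462% in cadmium mice, against 2.04% in vehicle mice over all genes with a strand. At 1 to 2 kb inside the gene the means were 55.8% and 56.0%, against 11.6% over all genes, but these rest on 22 CpGs of 5 members. Between 10 and 50 kb inside, 414 CpGs of 14 members averaged 37.9% and 38.6%, against 56.4% over all genes. The internal start of Slc30a3 lies in this last range of distances. The difference between members and other genes was not tested.

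Far ends fell into 7 below 5% and 6 above 65% in vehicle mice. ZnT far ends were methylated: Slc30a1 at 96.2% and 95.6%, Slc30a5 at 96.0% and 98.2%, and Slc30a7 at 95.3% and 96.8% in cadmium and vehicle mice. All 7 far ends below 5% belong to genes without a strand or share their window with an end of a neighbouring gene. Slc11a2, which imports ferrous iron and carries cadmium, was at 0.854% ± 1.36 (lowest 0%, median 0%, highest 4.62%) in cadmium and 0.280% ± 0.705 (0%, 0%, 2.19%) in vehicle mice at its higher-coordinate end. Slc40a1, the iron exporter ferroportin, was at 1.32% ± 1.82 (0%, 0.790%, 6.88%) and 0.693% ± 0.792 (0%, 0.311%, 2.12%) there. The groups overlapped in both iron genes, and the intervals of the differences were -0.249 to 1.40 and -0.448 to 1.70 points.

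Slc39a14, the importer of zinc, iron and manganese that also carries cadmium, was at 5.05% ± 2.75 (2.06%, 3.89%, 12.3%) in cadmium and 4.24% ± 1.61 (1.68%, 4.01%, 6.99%) in vehicle mice at its higher-coordinate end. Of 40 CpGs there, 3 were between 20% and 80% and 37 below 20%. The far end of Slc39a1, a zinc importer at the cell surface, gave the smallest p of any member part. It was at 1.02% ± 0.653 (0%, 1.10%, 2.07%) with cadmium and 0.433% ± 0.494 (0%, 0.261%, 1.38%) with vehicle over 32 CpGs, and the groups overlapped. The difference of 0.588 points had a 95% interval from 0.154 to 1.02, with p = 0.00758 and an adjusted p of 0.819 by the logistic model, and the window also holds an end of Crtc2. With a window of 2000 bp the difference was 0.374 points. Mtf1's far end, shared with ends of Yrdc and 1110065P20Rik, was at 0.706% ± 0.755 (0%, 0.392%, 2.60%) and 1.15% ± 0.800 (0%, 0.996%, 2.38%), with p = 0.102 and an adjusted p of 0.997. Slc39a6, an importer at the cell surface, was at 0.415% ± 0.314 (0%, 0.558%, 0.928%) and 0.611% ± 0.398 (0.0983%, 0.486%, 1.39%) at its higher-coordinate end, shared with an end of Elp2.

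The far end of Slc39a7 was unmethylated, at 0.535% ± 0.390 (lowest 0.0437%, median 0.568%, highest 1.43%) in cadmium and 0.657% ± 0.597 (0%, 0.410%, 1.79%) in vehicle mice, in a window shared with an end of H2-Ke6. The groups overlapped there. Far ends of Slc39a2, Slc39a3 and Slc39a4 were methylated and varied between mice. Slc39a2, a zinc importer, was at 73.0% ± 27.8 (lowest 13.04%, median 77.0%, highest 100%) in cadmium and 69.0% ± 35.0 (7.69%, 83.6%, 100%) in vehicle mice, the largest SD of any member part. Its 3 CpGs had a median of 75.5 reads per mouse in all. Slc39a3, another importer, was at 73.3% ± 18.3 (36.7%, 74.8%, 100%) and 79.5% ± 17.0 (50%, 78.3%, 100%). Slc39a4 was at 78.1% ± 21.4 (27.3%, 84.5%, 100%) and 81.2% ± 13.3 (54.7%, 78.6%, 100%) at its higher-coordinate end. In each of these methylated far ends the groups overlapped and the interval of the difference contained 0.

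Member bodies had a median of 72.7% in cadmium and 76.5% in vehicle mice, against 76.8% and 76.6% over all genes. Of the 22 bodies, 2 were below 20%, 11 between 20% and 80% (50%, against 38.8% of all genes) and 9 above 80% in vehicle mice, and 10 were higher and 12 lower in cadmium mice. The lowest bodies contain internal starts. Slc39a10 was at 12.9% and 12.4% in cadmium and vehicle mice, with 94 of 116 CpGs below 20%, and Slc30a3 at 13.8% and 12.7%, with 95 of 113 CpGs below 20%. Slc39a8 was at 38.0% ± 8.65 (lowest 21.3%, median 41.6%, highest 47.5%) in cadmium and 39.4% ± 8.35 (20.6%, 42.6%, 49.8%) in vehicle mice. The groups overlapped fully there, with a 95% interval from -7.70 to 5.02 points.

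The iron genes Slc11a2 and Slc40a1 had low mean levels in the body as well. Both lack a known strand, and their body CpGs run up to the edge of the higher-coordinate window, which was near 0. Slc11a2 was at 23.9% ± 5.94 (11.7%, 24.99%, 36.4%) with cadmium and 23.7% ± 7.81 (12.98%, 22.9%, 36.2%) with vehicle, with 56 of 77 CpGs below 20%. Slc40a1 was at 27.4% ± 19.5 (0%, 23.3%, 65.9%) and 20.4% ± 14.7 (0%, 20.4%, 49.5%) over 5 CpGs. In vehicle mice 3 of these CpGs were below 20% and 2 above 80%, so its mean is a mixture. Copper genes and Mtf1 were methylated throughout the body. Slc31a1 was at 97.0% ± 6.47 (78.6%, 100%, 100%) and 96.1% ± 4.69 (87.5%, 99.6%, 100%), Atp7b at 93.2% ± 3.98 (87.9%, 93.5%, 98.6%) and 93.4% ± 4.09 (86.7%, 94.6%, 99.1%), and Mtf1 at 92.9% ± 3.89 (86.4%, 94.4%, 98.0%) and 93.1% ± 4.53 (81.4%, 93.2%, 98.2%). Abcc1 was at 89.8% ± 4.85 (79.9%, 89.5%, 96.6%) and 91.3% ± 8.16 (72.9%, 92.6%, 100%). Abcc2, which exports glutathione conjugates into bile, was at 60.2% ± 5.47 (51.9%, 61.9%, 67.8%) and 57.9% ± 8.62 (43.3%, 56.1%, 70.9%). Cadmium and vehicle mice overlapped in all of these.

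The smallest p among the bodies was that of Slc39a3. It was at 87.0% ± 8.40 (lowest 69.7%, median 89.6%, highest 95.8%) with cadmium and 82.6% ± 7.33 (61.9%, 82.8%, 90.3%) with vehicle, with a 95% interval from -1.45 to 10.4 points, and the logistic model gave p = 0.0703 (adjusted p = 1.0). Slc39a9, a ZIP protein of the Golgi, followed among those with small p at 96.0% ± 3.40 (91.1%, 95.6%, 100%) and 97.8% ± 3.66 (87.3%, 100%, 100%). Bodies with the widest spread between mice rest on few CpGs. Slc30a2, which loads zinc into secretory vesicles, was at 66.0% ± 22.2 (34.0%, 64.9%, 98.2%) in cadmium and 74.4% ± 23.6 (25.7%, 80.5%, 100%) in vehicle mice over 4 CpGs. Slc39a4 was at 53.8% ± 27.3 (0%, 63.0%, 90.4%) and 54.4% ± 23.9 (3.45%, 48.5%, 100%) over 4 CpGs. Slc39a7 was at 60.5% ± 17.7 (31.9%, 57.0%, 86.5%) and 60.7% ± 20.8 (22.7%, 63.2%, 91.4%) over 6 CpGs, and Slc30a5 at 71.3% ± 14.8 (38.5%, 75.3%, 98.9%) and 78.6% ± 17.0 (41.6%, 79.2%, 100%) over 5 CpGs. Groups overlapped in each, and all of these bodies had an adjusted p of 1.0 by the logistic model. Without the 3 mice of highest maternal germline DMR level, vehicle mice 4 and 13 and cadmium mouse 11, the difference went from -8.32 to -13.3 points for Slc30a2 and from -7.33 to -14.2 for Slc30a5.

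Levels of some member parts, most of them bodies, moved with the maternal germline DMR level of the mouse. limma with treatment and this level as terms, adjusted over all genes, called the level in 13 of 22 bodies (59.1%, against 38.6% of all), 2 of 21 start windows (9.52%, against 12.3%) and 1 of 13 far ends (7.69%, against 25.5%). Of the 22 bodies, 12 were called as falling when the level rose (54.5%, against 28.2% of all bodies). The body of Slc39a2 was called as rising (4.55%, against 10.4%). The 4 CpGs of the Slc39a2 body are also those of the window around its RefSeq start, 528 bp into the gene. Its rise is thus not separate from that of a partly methylated start. Slopes are in points of methylation per point of the maternal level: -2.75 for Slc30a2 (adjusted p = 4.22e-05), -2.35 for Slc39a7 (3.20e-05), -1.75 for Slc30a5 (0.000327) and -1.48 for Slc39a13, a zinc carrier of the secretory pathway (4.52e-05). Slc39a14 had a slope of -0.909 (4.06e-06) and Abcc1 one of -0.850 (1.32e-05), while the body of Slc39a2 had one of 1.40 (0.000143). Called bodies included the highly methylated ones of Mtf1 (slope -0.493, adjusted p = 0.000156) and Atp7b (-0.380, 0.00482). Partly methylated parts were not all called: the adjusted p was 0.349 for the body of Slc39a8, 0.642 for that of Slc39a4, 0.990 for that of Slc40a1, 0.335 for the far end of Slc39a3 and 0.238 for that of Slc39a4. Both called start windows rose (9.52%, against 8.37% rising and 3.95% falling over all genes): Slc30a3 by 2.23 (adjusted p = 0.0157) and the lower-coordinate end of Slc39a4 by 1.67 (0.0107), and the far end of Slc39a2 fell, with a slope of -3.35 (0.00117; 13.3% of all far ends fell and 12.1% rose). Among the 19 start windows below 5%, none was called.

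The 3 mice with the highest maternal level were vehicle mice 4 and 13 and cadmium mouse 11. Without them 10 of the 13 bodies were still called, and all 13 slopes kept their sign. Over all genes 4095 of 17449 bodies were called without these mice, and 6734 with them. The start windows and the far end lost the call, with slopes of 2.55 for Slc30a3 (adjusted p = 0.0966), 1.20 for Slc39a4 (0.350) and -2.26 for the far end of Slc39a2 (0.154). In vehicle mice alone 9 bodies, 0 start windows and 1 far end were called. Over all genes these counts were 5257 of 17449, 1590 of 16058 and 1414 of 6903. In cadmium mice alone 3, 0 and 0 were called, against 739, 12 and 6 over all genes. Of those 3 bodies 2 were among the 13, and the other, Abcc2, was not called in all mice (adjusted p = 0.0693 by limma). Each slope called in all mice kept its sign in both groups. The part of the maternal level in the comparison of the groups was not tested beyond leaving out these 3 mice, and what the level stands for in these libraries was not tested.

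**Figure D4:**
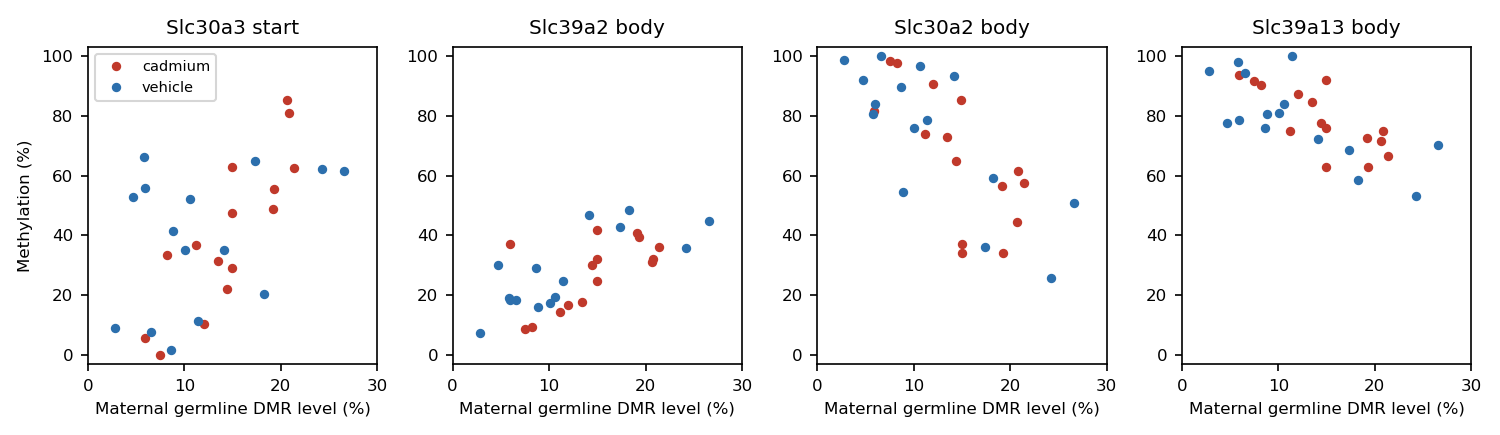
Methylation (%) of 4 member parts against the maternal germline DMR level (%) of each mouse; points are mice, red for cadmium and blue for vehicle. The Slc30a3 start and Slc39a2 body rise and the Slc30a2 and Slc39a13 bodies fall from left to right, with mice of both groups intermixed.

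Within the members, 165 clusters were compared, runs of at least 3 tested CpGs with gaps of at most 100 bp. Between groups 0 of 165 were called by the logistic model, against 0.000974% of 102696 clusters, and limma called 0. Before adjustment, at p under 0.05, the logistic model marked 14 (8.48%, against 6.02%) and limma 7 (4.24%, against 2.94%). The smallest p was that of an Atp7b cluster at chr8:22016060-22016103, inside the gene. Its 4 CpGs were at 99.0% ± 2.92 in 11 cadmium mice (lowest 90.2%, median 100%, highest 100%) and 85.4% ± 12.2 in 11 vehicle mice (61.5%, 83.3%, 100%). The groups overlapped, with 8 cadmium and 2 vehicle mice at 100%. The difference of 13.5 points had a 95% interval from 5.19 to 21.8, with p = 0.000456 and an adjusted p of 0.282 by the logistic model. With a minimum of 5 reads the difference was 6.59 points (adjusted p = 0.916). A second Atp7b cluster, at chr8:22002055-22002097, lay the other way at 92.9% ± 7.82 (75.4%, 94.7%, 100%) in cadmium and 98.0% ± 3.58 (88.6%, 100%, 100%) in vehicle mice (adjusted p = 0.688).

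The remaining clusters named, from the 4 of smallest p in each direction, were in Slc39a3, Slc39a11, Abcc1, Mtf1 and Slc39a14. The Slc39a3 cluster at chr10:81031541-81031583 was at 81.6% ± 9.10 (59.2%, 82.1%, 96.1%) in cadmium and 73.6% ± 9.06 (56.2%, 72.1%, 90.6%) in vehicle mice (adjusted p = 0.708). At chr4:124849853-124849888, near the far end of Mtf1, the levels were 0.987% ± 3.42 (0%, 0%, 11.8%) in 12 cadmium and 7.80% ± 6.08 (0%, 8.06%, 16.7%) in 12 vehicle mice (adjusted p = 0.567). There 11 cadmium and 3 vehicle mice were at 0%. The Slc39a14 cluster at chr14:70351028-70351109 had no methylated read in 14 cadmium mice, where 1691 reads allow up to 0.177%, and 1.97% ± 4.80 (0%, 0%, 17.5%) in vehicle mice (adjusted p = 0.755). The Abcc1 cluster at chr16:14361407-14361778 holds the 45 CpGs of the start window given above. Cadmium and vehicle mice overlapped in all 165 clusters, a count that was not made over all clusters.

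Slc39a11, a member of the ZIP family with the longest gene body here, spans 405350 bp and held 51 of the 165 clusters. In vehicle mice 7 of them were below 20%, 11 between 20% and 80% and 33 above 80%. Its start cluster was at 0.360% ± 0.366 (lowest 0%, median 0.288%, highest 0.987%) in cadmium and 0.501% ± 0.498 (0%, 0.415%, 1.30%) in vehicle mice. Further clusters near 0 lay about 30.7 to 31.4 kb and 84.4 to 84.9 kb inside the gene, the latter beside a RefSeq start 84385 bp into it. Between groups the cluster at chr11:113546493-113546514 was at 65.7% ± 31.4 (0%, 75.0%, 100%) in 11 cadmium and 87.7% ± 10.7 (67.1%, 89.6%, 100%) in 11 vehicle mice (adjusted p = 0.764). That at chr11:113494217-113494338 was at 97.2% ± 4.63 (85.3%, 100%, 100%) and 92.1% ± 7.44 (77.3%, 93.6%, 100%), with an adjusted p of 0.702. The groups overlapped at both.

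With the maternal level, 31 of 165 member clusters were called (18.8%, against 21% of all), 9 rising (5.45%, against 9.46%) and 22 falling (13.3%, against 11.5%). Rising clusters averaged 9.61% to 65.5% in vehicle mice and falling ones 54.1% to 98.1%. Slc39a11 held 14 of the 31, of which 3 rose and 11 fell. Its cluster at chr11:113400078-113400252 was at 35.2% ± 21.2 (lowest 0%, median 34.9%, highest 65.4%) in cadmium and 35.1% ± 20.7 (10.5%, 30.8%, 84.2%) in vehicle mice and rose by 2.30 points per point of the maternal level (adjusted p = 0.000739 by limma). In Slc39a8, 3 clusters rose and 1 fell. The cluster holding the 8 CpGs of the upstream Slc30a3 start rose by 2.68 (adjusted p = 0.00268). Without the 3 mice named above 15 of the 31 clusters were still called, and all 31 kept the sign of their slope. Over all clusters 11082 of 102696 were called without these mice, and 21577 with them.

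**Figure D5:**
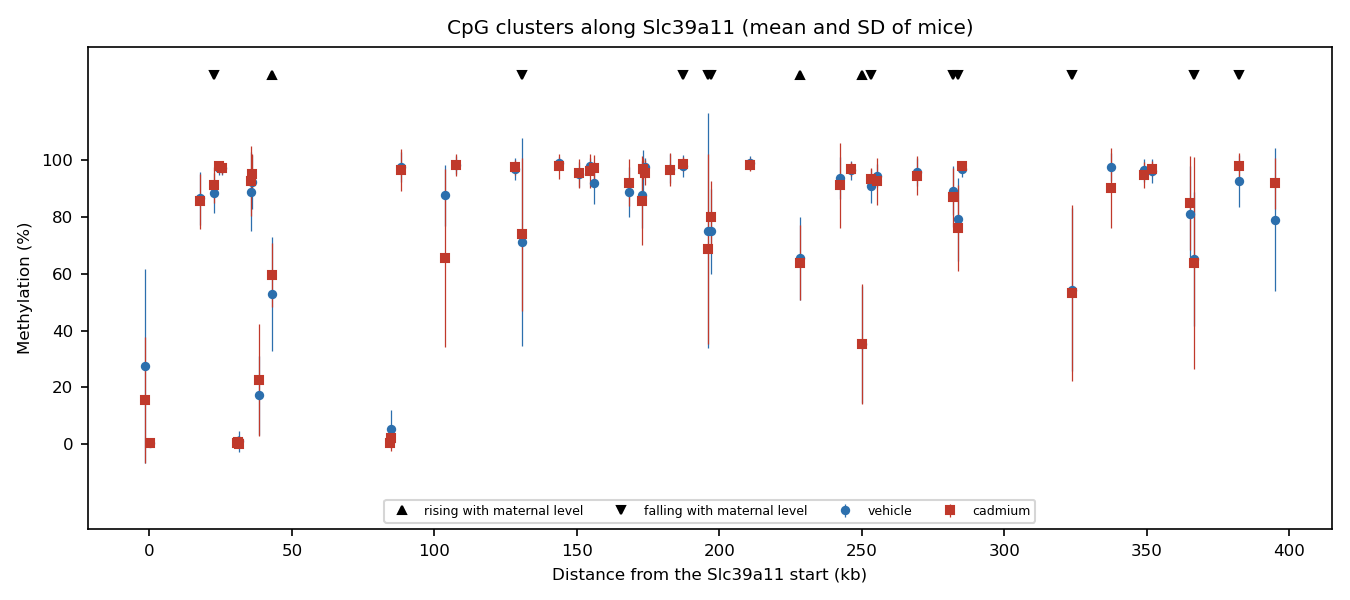
Methylation (%) of the 51 CpG clusters along Slc39a11 by distance from its start in kb; blue circles are vehicle and red squares cadmium means, bars the SD over mice (drawn past 100% where the SD is large), and triangles at the top mark clusters that rise or fall with the maternal germline DMR level in all mice. Most clusters lie above 80%, those near 0 sit at the start and near 31 and 84 kb, and 3 rising and 11 falling clusters are scattered along the gene.

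At single CpGs 0 of 2120 members were called by the logistic model, against 0.000533% of 1125285, and limma called 0. Before adjustment the logistic model marked 227 (10.7%, against 10.1%) and limma 31 (1.46%, against 1.67%). Where every mouse of a group reads 0% or 100%, that group adds nothing to the model's dispersion, which can make its p too small. Of the 227, 122 were higher and 105 lower in cadmium mice (5.75% and 4.95%, against 5.32% and 4.75%). The smallest p was at position 113357558 of chromosome 11 in Slc39a11, where 14 cadmium mice were all at 100% and 10 vehicle mice at 96.7% ± 5.55 (lowest 85.5%, median 100%, highest 100%), with an adjusted p of 0.147 by the logistic model. Position 22016102 of chromosome 8, in the Atp7b cluster above, was at 99.7% ± 1.01 in 11 cadmium and 85.0% ± 18.8 (50%, 100%, 100%) in 11 vehicle mice (adjusted p = 0.172), a difference of 14.7 points that was 7.60 with a minimum of 5 reads (adjusted p = 0.528). In both groups most of these mice stood at 100%.

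Among the CpGs lower in cadmium mice, the one at position 124803143 of chromosome 4, 594 bp inside Mtf1, had no methylated read in 15 cadmium mice, which allows up to 0.341%. The vehicle mice were at 5.14% ± 7.21 (lowest 0%, median 0%, highest 21.5%), 9 of them at 0%, and the logistic model gave p = 0.000102 (adjusted p = 0.153). By limma on percent methylation the unadjusted p at this CpG was 0.00942. At position 134343210 of chromosome 4, 164 bp inside Slc30a2, the cadmium mice again had none, which allows up to 0.320%, and the vehicle mice 4.44% ± 8.27 (0%, 0%, 26.5%), 11 of them at 0% (adjusted p = 0.175). At both CpGs the groups overlapped at 0%. The other CpGs among the 4 of smallest p in each direction were 3 in Slc39a11 and 1 in Slc39a4, with adjusted p from 0.155 to 0.194.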

How the data were processed

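The deposited tables give, for each cytosine of a CpG on each strand, a count of reads and the fraction of them methylated, as the authors made them per the file headers. The submitters' processing notes list methylKit 1.12.0, Bismark 0.22.3, bcl2fastq and Trim Galore 0.5.0, and the builds GRCm38 and mm10; their roles are not given in the sources used here. Methylated reads were the rounded product of fraction and count, which missed a whole number by over 0.1 at no more than 1 cytosine per library. Reads span neighbouring CpGs and PCR copies share a molecule, so limits from counts reflect counting error alone. The control sequence with methylated CpGs read 97.9% to 98.7% and the unmethylated one 0.0740% to 0.666%.

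Strands were summed (Python 3.11.15, numpy 2.4.6), coverage above the 99.9th percentile within a mouse was dropped, and testing took autosomal and X CpGs where at least 10 mice per group had 10 or more reads. Reads of CpGs, windows, bodies and clusters were compared with a quasi-binomial logistic model (Pearson dispersion never below 1, F test of treatment), checked on simulated data, and with limma 3.58.1 in R 4.3.3 on percent methylation. P values were adjusted over all features of a kind. Intervals are at 95% (Welch). Strand came from RefSeq promoter entries (GRCm38.p6), in whose sequences all 221670 CpGs of the tables that fall there read CG. No genome was used, so exons and introns are not given, and cluster sequences are not shown.

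The members, gene lists and tests were chosen with earlier results of these data known. Named in full were the 4 members with the smallest p per part, the 8 parts of 10% to 90% with the largest SD among vehicle mice, the main cadmium, iron, copper and ABC carriers where measured, and the 4 higher and 4 lower CpGs and clusters with the smallest p. Internal starts were named after their values were seen. Replicate numbers were not taken as pairs: 6 of 15 same-numbered pairs correlated above 0.1, from -0.301 to 0.734. Alternatives were minimum coverage of 5 reads and of 20 reads, only features with every mouse measured, windows of 500 and 2000 bp, gaps up to 300 bp, unweighted means, limma with and without a replicate block, and leaving out 3 mice. Also run were no upper coverage limit and, for single CpGs, strands kept apart. A further alternative, not planned beforehand, pooled the windows around all RefSeq promoter starts of each gene.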

Additional observations from a re-analysis of the deposited data

How the results depend on the processing

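No member was called between groups under any alternative run. Over all features the logistic model called 6 CpGs, and this count was 14 with a minimum of 5 reads, 1 without the 3 mice of highest maternal level (vehicle mice 4 and 13, cadmium mouse 11), 0 by limma and 0 by limma with a replicate block. For clusters it called 1, against 3 with 5 reads, 0 with 20 reads, 0 with all 15 mice of each group, 3 with gaps up to 300 bp, and 0 by limma with or without the block. For far ends it called 0, and 1 without the 3 mice. The replicate block gave 0 calls for start windows, far ends and bodies too. With the maternal germline DMR level, all mice gave 1978 start windows, 1758 far ends, 6734 bodies and 21577 clusters. Cadmium mice alone gave 12, 6, 739 and 395, with 0, 0, 3 and 1 among members. Vehicle mice alone gave 1590, 1414, 5257 and 17424, with 0, 1, 9 and 25 among members. Without the 3 mice, an alternative added after seeing the data, the counts were 1002, 987, 4095 and 11082, with 0, 0, 10 and 16 among members. Those fits use fewer mice.

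Of 140 alternative values for the differences of 28 named parts, clusters and CpGs, 138 kept their direction, and none passed the threshold. The alternatives reuse the same reads, and some, such as no upper coverage limit, left the difference unchanged. The 28 were also named for their small p in these reads, so the count of 138 does not measure stability. The 2 that reversed were Slc30a6's start, at 0.213 points with 5 reads, and Slc39a6's far end, at 0.173 with a window of 2000 bp. Outside these 140, the lower-coordinate end of Slc39a4 reversed to 4.57 points as an unweighted mean over CpGs (p = 0.498, permutation test); the cause was not tested. Small differences also changed in size, such as that of Mtf1's far end, from -0.441 to -2.20 points with a window of 500 bp, and that of Slc31a1's start, from -0.351 to -0.0826 with all 15 mice of each group. Parts with few CpGs and reads limit what can be seen: the interval of the difference was over 30 points wide at the Slc30a3 start and at the body of Slc39a4, and under 1 point at the Slc30a1 start.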

Other observations

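A further 42 genes of metal handling that are not members were read in the same way. They gave 28 start windows, 10 far ends and 29 bodies, and the logistic model called 0 in each, with 2 start windows at an unadjusted p under 0.05 (background 5.55%). Start windows below 5% in vehicle mice numbered 22 of 28, with a median of 0.721% in cadmium and 0.690% in vehicle mice over all 28. Atp7a, the copper pump that is lost in Menkes disease, was at 0.764% ± 1.74 (lowest 0%, median 0%, highest 5.83%) in 14 cadmium and 0.0314% ± 0.122 (0%, 0%, 0.472%) in 15 vehicle mice, 11 and 14 of them at 0% (p = 0.0181, adjusted p = 0.781). Flvcr1, a heme exporter, was at 0.391% ± 0.283 (0%, 0.387%, 1.07%) and 0.689% ± 0.531 (0%, 0.810%, 1.53%), with p = 0.0397 and an adjusted p of 0.866. Atox1, the copper chaperone of these pumps, followed at 0.905% ± 0.665 (0%, 0.871%, 2.22%) and 0.545% ± 0.399 (0%, 0.507%, 1.27%), with an adjusted p of 0.912. The groups overlapped at all 3 starts.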
